A study of Mus musculus with 12 samples.

Results

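The miR-486 locus of the mouse gives 4 rows among the 850 rows (517 precursors) of a small RNA count table from cardiomyocytes and cultured nonmyocytes of the heart. The rows were taken by position, as every row that begins between bases 24253000 and 24253200 of chromosome 8 in the mm9 build, on either strand. They are the sense 5p arm, the sense 3p arm, and the reads on the opposite strand over each of those arms. The locus was picked because its sense 5p and opposite-strand 3p counts had been seen to differ between the cell fractions, so that contrast is described here for the 4 rows without a test.

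A microRNA is cut from a hairpin of RNA, and either side of the stem, the 5p or the 3p arm, can be loaded into Argonaute and guide it to messenger RNAs. MiR-486 is a muscle-enriched microRNA that is also abundant in red blood cells. It lies in an intron of Ank1, which encodes ankyrin 1 of the red cell membrane skeleton and, from an internal promoter, a small muscle ankyrin that ties the sarcoplasmic reticulum to the sarcomere. Work in muscle has placed Foxo1, a transcription factor that PI3K-AKT signalling holds in check, among its targets, and myocardin-related transcription factors acting with SRF upstream of it. The stem is close to a perfect inverted repeat. The opposite strand can therefore be written as a hairpin too, annotated as miR-486b, whose 5p arm lies over the sense 3p arm and has the same mature sequence as the sense 5p arm.

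Cells came from 3 wild-type hearts of female FVB/NJ mice aged 12 weeks, which were perfused on a Langendorff apparatus, digested with collagenase and separated by gravity. RNA of the cardiomyocytes was taken at once. Nonmyocytes were passaged into a culture that the labels describe as mostly fibroblasts, calling it passage 1 in one field and passaged 2 times in another, so cell type and time in culture cannot be told apart. Each fraction had 3 small RNA libraries, made with a TruSeq small RNA kit, and 3 libraries of polyadenylated RNA that do not keep the strand. Values of single libraries are given in the order of libraries 1, 2 and 3 throughout. No label ties a library to a heart, so the spread between libraries may be technical. In these bulk samples, fewer cells of a type and less RNA per cell cannot be told apart.

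Small RNA totals ran from 412739 to 6311625 counts in cardiomyocytes and from 83170 to 1255622 in nonmyocytes, a 15.3-fold and a 15.1-fold range. Small RNA libraries that stand apart are cardiomyocyte library 1, the smallest of its fraction, and nonmyocyte library 3, the smallest of all. In polyadenylated RNA cardiomyocyte library 1 was the smallest of all, at 5956831 counts against 26851830 and 26195634 in libraries 2 and 3. Nonmyocyte totals there ran from 8126422 to 10792544. In polyadenylated RNA, 5 of 5 cardiomyocyte markers were higher and 6 of 6 fibroblast markers lower in cardiomyocytes (edgeR, adjusted p under 0.05). All 4 tested endothelial markers were also higher there, with a summed level of 291 to 607 CPM (counts scaled to the size of the library) against 41.6 to 55.3, and 2 of 2 tested macrophage markers were lower.

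The sense 5p row covers bases 24253059 to 24253080 and the sense 3p row bases 24253101 to 24253121, with 20 bases between them. Both lie on the plus strand inside Ank1 (chromosome 8, 24085294 to 24260969, plus strand). In 15 of the 17 annotated Ank1 transcripts the arms fall in the last intron, before the exon that starts at 24258753, and no Ank1 exon covers them. A noncoding gene of the minus strand, n280245 (24249265 to 24260057), spans them as well. With the mature sequence annotated as the same on both hairpins, a read of it fits both windows, and how such reads were assigned is not given in the sources used here.

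Other microRNAs of the table also have 1 mature sequence with 2 precursors. Their counts per precursor are described further on, but cannot show how shared reads were assigned. Shown here from RefSeq (GRCm38.p6) are 3 of these mature sequences and that of miR-451a, a red cell microRNA set beside miR-486 further on. The seed, bases 2 to 8, is in capitals.
mmu-miR-181a-5p: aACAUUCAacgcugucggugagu
mmu-miR-26a-5p: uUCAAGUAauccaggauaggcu
mmu-miR-30c-5p: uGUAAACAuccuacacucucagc
mmu-miR-451a: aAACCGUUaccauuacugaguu

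Almost all reads of the locus were on the sense 5p row and the opposite-strand 3p row. Sense 5p counts were 99395, 393940 and 412011 in cardiomyocytes and 715, 531 and 586 in nonmyocytes. Opposite-strand 3p counts were 121384, 515610 and 566525 in cardiomyocytes and 788, 571 and 821 in nonmyocytes. The opposite-strand row was the fuller of the pair in all 6 libraries, and neither row overlapped between fractions. The remaining rows were minor. The sense 3p arm had 927, 2836 and 2739 counts in cardiomyocytes and 3, 10 and 9 in nonmyocytes. The opposite-strand 5p row had 36, 95 and 94 counts in cardiomyocytes and none in any nonmyocyte library.

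As a share of each library the locus was far from uniform within a fraction. The 4 rows summed to 53.7%, 29.8% and 15.5% of all small RNA counts in cardiomyocytes. They summed to 0.120%, 0.202% and 1.70% in nonmyocytes. The lowest cardiomyocyte share was 9.13-fold the highest nonmyocyte share. Nonmyocyte library 3 was 14.2-fold above nonmyocyte library 1 and 8.42-fold above nonmyocyte library 2. Its raw counts did not stand apart in the same way: nonmyocyte counts of the locus spanned 1.35-fold between the lowest and the highest, while the library totals spanned 15.1-fold. In cardiomyocytes the counts of the locus spanned 4.43-fold and the totals 15.3-fold. Small total and high miR-486 share went together in both fractions, and the part of depth in the shares was not tested.

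**Figure D1:**
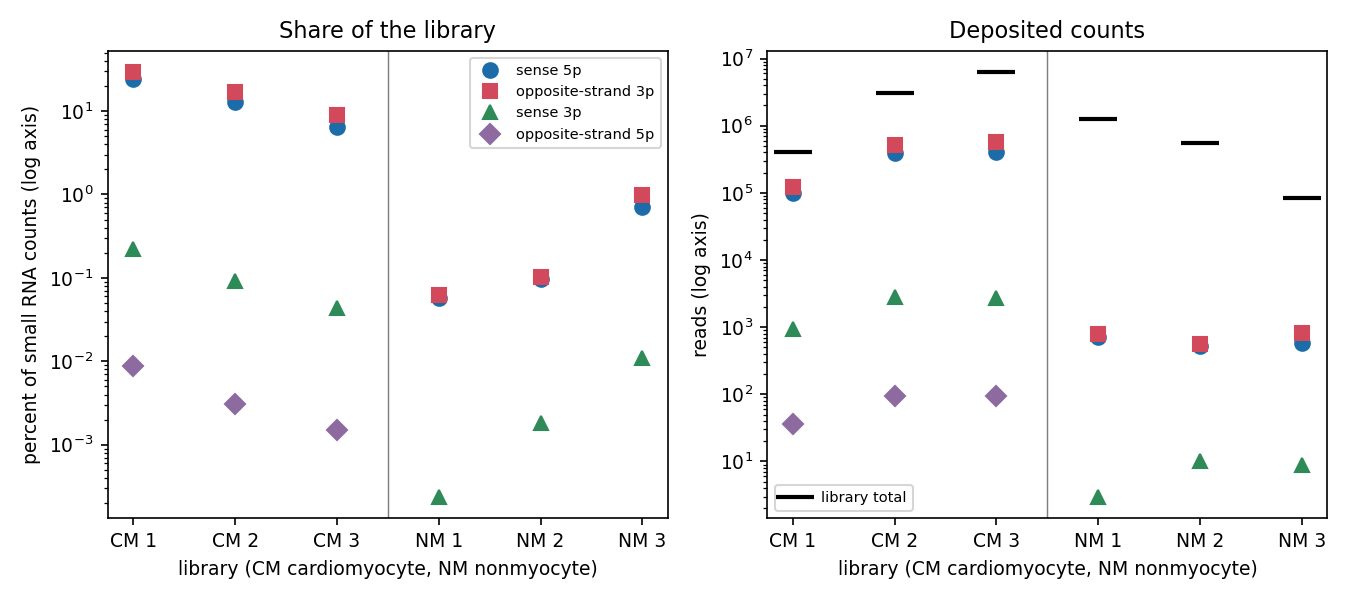
Left, each miR-486 row as a percent of the library's small RNA counts (log axis) in 3 cardiomyocyte (CM) and 3 nonmyocyte (NM) libraries; right, the deposited counts with the library total as a bar (log axis). Sense 5p and opposite-strand 3p lie almost on top of each other in all 6 libraries, nonmyocyte counts stay between 531 and 821 for these rows while the totals fall to 83170, and rows with 0 counts are not drawn.

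By rank among all 850 rows, the opposite-strand 3p row was number 1, 1 and 3 in cardiomyocytes, and 86, 76 and 20 in nonmyocytes. The sense 5p row ranked 2, 4 and 5 in cardiomyocytes and 93, 80 and 30 in nonmyocytes. The sense 3p arm ranked 30, 54 and 78 in cardiomyocytes and between 201 and 439 in nonmyocytes. Thus 1 locus supplied a leading row on each strand in all 3 cardiomyocyte libraries.

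Scaled by TMM (the trimmed mean of M values, which sets libraries to a common level of their typical rows), the sense 5p row stood at 247704 ± 138578 CPM in cardiomyocytes and 1611 ± 2047 CPM in nonmyocytes (SD, n = 3 each). Its log2 fold change, cardiomyocyte minus nonmyocyte, was 7.27 ± 1.35 (SE). The opposite-strand 3p row stood at 315357 ± 158638 and 2167 ± 2945 CPM, a log2 fold change of 7.19 ± 1.43. Both fold changes come from the same 6 libraries, so their standard errors do not measure the error of the difference between them. For the sense 3p arm the levels were 2043 ± 1498 and 24.0 ± 32.3 CPM, a log2 fold change of 6.83 ± 1.45. The opposite-strand 5p row, at 75.3 ± 61.1 CPM in cardiomyocytes, was 80.8-fold the limit of 0.931 CPM that 3 counts over the pooled nonmyocyte libraries set. In nonmyocyte library 3 alone, 3 counts set a limit of 20.3 CPM.

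All 4 rows passed the filter on low counts, and in all 4 every cardiomyocyte library was above every nonmyocyte library, as in 21.3% of the 343 rows tested. Since the locus was chosen on this contrast, that count describes it and supports nothing. Over all rows tested, edgeR called 52.8% (19.0% higher and 33.8% lower in cardiomyocytes) and the median log2 fold change was -0.23. Ordered from the most cardiomyocyte-rich row down, by fold change, the miR-486 rows were numbers 3, 7, 8 and 9 of 343.

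The size of the fold depended on nonmyocyte library 3. Without that library the log2 fold change was 9.60 for sense 5p, 9.82 for opposite-strand 3p and 9.10 for sense 3p. With cardiomyocyte library 1 left out as well, the values were 8.65, 8.95 and 7.95. With library totals in place of TMM, sense 5p fell to 5.67 and opposite-strand 3p to 5.59, while the median of all rows moved by -1.64 on the log2 scale. Under each of these settings the values of sense 5p and opposite-strand 3p moved in the same direction.

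The division of counts between sense 5p and opposite-strand 3p changed little beside these levels. A read of the shared mature sequence fits both rows, and how such reads were assigned is not given. The division therefore cannot show whether the strands themselves moved together. Of the counts of sense 5p plus opposite-strand 3p, the opposite-strand row held 55.0% (95% Clopper-Pearson interval 54.8 to 55.2), 56.7% (56.6 to 56.8) and 57.9% (57.8 to 58.0) in cardiomyocytes. It held 52.4% (49.9 to 55.0), 51.8% (48.8 to 54.8) and 58.4% (55.7 to 60.9) in nonmyocytes. The intervals cover counting error only, since reads after PCR are not independent molecules. The mean share was 56.5 ± 1.46% in cardiomyocytes and 54.2 ± 3.61% in nonmyocytes (SD, n = 3 each), so the fractions overlapped. Across libraries the ratio of opposite-strand 3p to sense 5p ran from 1.08 to 1.40, a 1.30-fold range. The share of the locus in the library ran over 448-fold across the same 6 libraries.

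**Figure D2:**
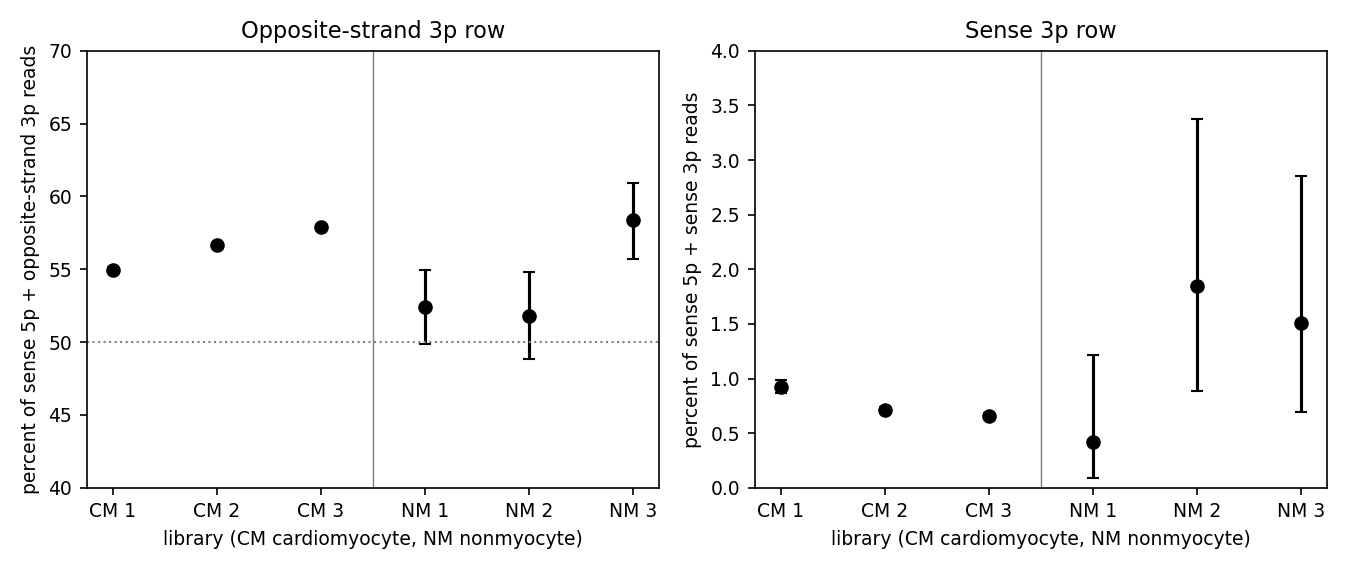
Left, opposite-strand 3p reads as a percent of opposite-strand 3p plus sense 5p reads; right, sense 3p reads as a percent of both sense arms; points are libraries and bars 95% Clopper-Pearson intervals, which are narrower than the points in most cardiomyocyte libraries. The opposite-strand share lies between 51.8% and 58.4% in all 6 libraries (the left axis runs from 40% to 70%), and the sense 3p share is under 2% in all 6.

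Arm use on the sense strand was strongly to the 5p side in both fractions. The 3p arm made up 0.924%, 0.715% and 0.660% of the sense reads in cardiomyocytes, and 0.418%, 1.85% and 1.51% in nonmyocytes. Few reads lie behind the nonmyocyte values, so their intervals (0.0862 to 1.22%, 0.890 to 3.37% and 0.694 to 2.85%) are wide. The means, 0.766 ± 0.139% and 1.26 ± 0.748%, overlapped. On the opposite strand, the 5p row held 0.0296%, 0.0184% and 0.0166% of that strand's reads in cardiomyocytes. In nonmyocytes its 0 counts allow shares of up to 0.381%, 0.525% and 0.365%, so a like share would not have been detectable at this depth. In the counts as assigned, the row holding the mature sequence thus led on each strand, sense 5p on one and the row over sense 3p on the other.

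Counts per precursor were also compared for other pairs with 1 mature sequence. Rows on chromosome 18 were left out of this comparison. It does not cover miR-133a-3p, an abundant microRNA that also has 2 precursors in the table. Among the remaining sense rows with 1 RefSeq mature sequence and 2 precursors, 7 pairs had at least 100 counts in every library. The copy with more reads held 57.6% to 96.3% of a pair. For miR-181a-5p, a regulator known from lymphocyte and vascular biology, the precursor Mir181a-2 held 57.6% to 76.3%. For miR-26a-5p, a growth-restraining microRNA, Mir26a-2 held 66.0% to 78.1%, and for miR-30c-5p, which is abundant in heart, Mir30c-2 held 74.9% to 77.9%. None of these 7 pairs stayed between 40% and 60% in every library, as the miR-486 pair did. Of the less abundant pairs, miR-199a-5p did so, with 45.2% to 54.2% on Mir199a-2, on as few as 4 counts in a library. Between libraries the shares of the 7 pairs moved over 2.19 to 18.7 percentage points, with miR-486 inside that range at 6.54 points. This comparison is a description with no test.

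Opposite-strand reads were common in this table, but rarely beside an equal sense row. Of 68 opposite-strand rows over 53 precursors, 36 precursors also had sense reads and 17 had none. Only Mir486 and Mirlet7b had at least 100 counts on both strands. At Mir486 56.9% of the 2119626 locus reads were assigned to the opposite-strand rows, although a read of its shared mature sequence fits either strand. At Mirlet7b, a member of the let-7 family that restrains proliferation, the share was 0.754%. Mir486 alone held 51.9% of all opposite-strand counts. Opposite-strand counts, those of Mir486 included, made up 39.3%, 28.9% and 18.5% of cardiomyocyte libraries, and 5.57%, 5.96% and 9.92% of nonmyocyte libraries.

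The next 3 opposite-strand rows differed from miR-486 in having few or no sense counts at their precursor. AC116595.1-5p had 37253, 313050 and 491284 opposite-strand counts in cardiomyocytes and 1114, 634 and 618 in nonmyocytes. CT010508.1-3p~ was not cardiomyocyte-rich, with 1491, 42843 and 69375 counts in cardiomyocytes and 52437, 22792 and 1520 in nonmyocytes. AC130827.1-5p~ had 81, 2980 and 11028 counts in cardiomyocytes against 647, 224 and 4244 for nonmyocytes, and its precursor had 8 sense counts in all.

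The rows whose levels across the 6 libraries were most like sense 5p, by Pearson's r of log2 CPM among 339 other rows, included that same opposite-strand row. AC116595.1-5p had r = 0.993, Mir204-5p r = 0.990, Mir30a-3p r = 0.985, AC122210.1-5p r = 0.982 and Mir149-5p r = 0.978. The median over the 339 rows was -0.37 and 14 rows reached 0.95. The points are 3 libraries of each of 2 fractions that differ widely in depth, so r is a description. None of the 5 came near the abundance of miR-486 except AC116595.1-5p. Mir204-5p, for example, had 125, 648 and 1129 counts in cardiomyocytes and 101, 51 and 11 in nonmyocytes, under 0.1% of every cardiomyocyte library.

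MiR-486 was next set beside the classic muscle microRNAs (miR-1a, miR-133a, miR-133b, miR-206, miR-208a, miR-208b and miR-499, which act in sarcomere and conduction gene programmes). Of the 9 precursors listed, 8 were in the table, all but Mir1a-2, with 14 sense rows. These summed to 12.3%, 20.0% and 19.1% of the counts in cardiomyocytes and to 0.0272%, 0.0484% and 2.72% in nonmyocytes. Most of the cardiomyocyte sum was miR-133a-3p, with 9.64%, 15.4% and 14.5% on Mir133a-2 and 2.61%, 4.39% and 4.13% on Mir133a-1. Mir1a-1-3p held 0.0138%, 0.0801% and 0.216%. The sum is therefore largely a measure of miR-133a. In the sum the fractions did not overlap, and nonmyocyte library 3 was the highest of its fraction here too. Of 10 rows tested with edgeR, 7 were higher in cardiomyocytes (19.0% of all rows were), none was lower, and the median log2 fold change was 5.86.

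The ratio of the 4 miR-486 rows, both strands, to the muscle list, sense rows only, was not constant within a fraction. It was 4.37, 1.49 and 0.813 in cardiomyocytes and 4.40, 4.18 and 0.627 in nonmyocytes. Thus the 4 rows together exceeded the list in 4 libraries and were below it in cardiomyocyte library 3 and nonmyocyte library 3. The sense 5p row alone held 24.1%, 12.9% and 6.53% of the counts in cardiomyocytes. In nonmyocytes it held 0.0569%, 0.0966% and 0.705%. Taken alone it was below the list in cardiomyocyte library 2 as well, and above it in library 1 of each fraction and nonmyocyte library 2. Cardiomyocyte library 1 had the highest miR-486 share of any library but the lowest muscle list share of its fraction.

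Red cell markers were examined because miR-486 is also a red cell microRNA. MiR-451, whose sequence is given above and which is processed by Argonaute 2 without Dicer in red cell precursors, had 70, 128 and 98 counts in cardiomyocytes and 18, 6 and 29 in nonmyocytes. As shares these were 0.0170%, 0.00418% and 0.00155%, and 0.00143%, 0.00109% and 0.0349%. The fractions overlapped, with nonmyocyte library 3 the highest and cardiomyocyte library 1 the next. The miR-486 rows of both strands held 3168, 7129 and 10014 reads per miR-451 read in cardiomyocytes, and 83.7, 185 and 48.8 in nonmyocytes. Of the 3 rows of miR-451 and miR-144, 1 passed the filter and none was called by edgeR (log2 fold change 0.98).

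**Figure D3:**
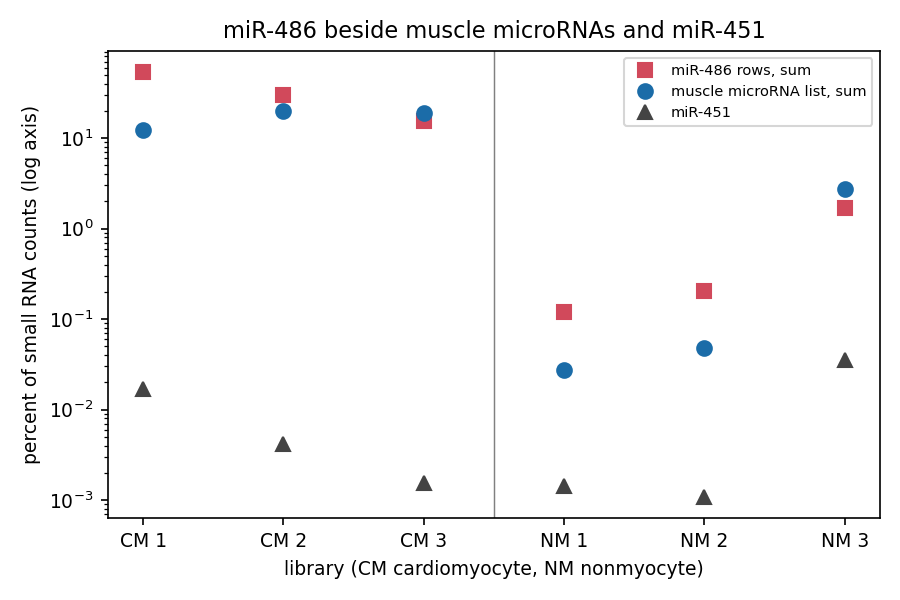
Percent of small RNA counts (log axis) held by the sum of the 4 miR-486 rows (both strands), by the muscle microRNA list and by miR-451 (sense rows only) in each library. MiR-486 and the muscle list are above 10% in all 3 cardiomyocyte libraries, nonmyocyte library 3 is the highest nonmyocyte library for all 3 measures, and miR-451 overlaps between the fractions.

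In the polyadenylated RNA, globin messages were uneven among the cardiomyocyte libraries. Hba-a1, an alpha globin gene, stood at 333, 46.5 and 6.71 CPM in cardiomyocytes and at 1.78, 1.54 and 0.541 CPM in nonmyocytes. Hbb-b2, a beta globin gene, stood at 243, 36.5 and 4.64 CPM and at 0.818, 0.481 and 0.232 CPM. The summed level of the 11 listed red cell genes in the table was 12.8 to 602 CPM in cardiomyocytes and 1.85 to 3.95 CPM in nonmyocytes. Globin genes are near-identical copies, so the division between them is uncertain. The membrane genes Epb4.2 and Rhag were at 0 in all 6 libraries. Slc4a1, which encodes band 3, had 4 counts in cardiomyocyte library 3 and none in any other library of either fraction. Klf1, also below the filter, went the other way from the globins, with 0, 1 and 0 counts in cardiomyocytes and 6, 0 and 3 in nonmyocytes. Of 3 listed genes tested, Hba-a1 and Hbb-b2 were higher in cardiomyocytes by edgeR (adjusted p = 0.031 and 0.028), and neither was with limma voom or with no filter on low counts. Leaving out any 1 nonmyocyte library reduced the calls to between 0 and 1, while without cardiomyocyte library 3 there were 4 calls, among them Alas2, a heme synthesis gene (log2 fold change 2.06, edgeR adjusted p = 0.043). The part of red cell RNA in the miR-486 share was not tested.

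The host gene was tested in the polyadenylated RNA, an assay that the rule for the locus did not use. It covers the same cell fractions, and earlier results of these data were known, so this is not an independent test. Ank1 had 2738, 8922 and 8843 counts in cardiomyocytes and 107, 63 and 93 in nonmyocytes. This gave 472 ± 51.6 CPM for cardiomyocytes against 7.07 ± 0.951 CPM for nonmyocytes (SD, n = 3 each), with no overlap. The log2 fold change was 6.05 ± 0.20 (SE; edgeR, adjusted p = 1.2e-10), in a comparison where 63.7% of 14734 genes were called. The Ank1 level varied far less between cardiomyocyte libraries than the miR-486 rows did. These are different assays, and small RNA varied more as a whole (biological coefficient of variation 0.639 against 0.251). The spreads therefore cannot be compared directly. In these annotations 38.1% of the Ank1 exon sequence is shared with other genes, and counts per gene do not separate the red cell form from the small muscle form.

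The opposite-strand gene n280245 was low. It stood at 8.10, 2.48 and 2.66 CPM in cardiomyocytes and at 0, 0.385 and 0 CPM in nonmyocytes, a log2 fold change of 5.12 ± 1.03 (edgeR, adjusted p = 0.00073). Without nonmyocyte library 2, the only one of its fraction with reads, the value was 9.01. Since 51.0% of its exon sequence is shared with other genes and the libraries keep no strand, these reads cannot be told apart from reads of Ank1.

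Of 8 coding genes within 300 kb, Ank1 included, 6 were tested with edgeR, of which Ank1 was higher and 2 were lower in cardiomyocytes. Over all genes 31.6% were higher and 32.1% lower, so the number called was near the background. Sfrp1, a secreted inhibitor of Wnt signalling, had a log2 fold change of -5.49 ± 0.29, and Golga7, a Golgi protein acting in palmitoylation, -0.73 ± 0.23 (edgeR, adjusted p = 3.6e-09 and 0.014). Myst3 at 0.24 ± 0.16, Agpat6 at 0.18 ± 0.15 and Gins4 at -0.47 ± 0.67 did not pass the test. Golga7 lost its call without cardiomyocyte library 3 (-0.61), nonmyocyte library 1 (-0.65) or nonmyocyte library 3 (-0.66), and Myst3 was called as higher without nonmyocyte library 1 (0.43). With library totals, Myst3 and Agpat6 took the opposite sign and 4 genes were lower.

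Genes published as miR-486 targets did not move in one direction between the fractions. Of 12 listed, 9 were tested with edgeR: 5 were higher in cardiomyocytes, 3 were lower and 1 did not pass (31.6% of all genes were higher and 32.1% lower), with a median log2 fold change of 1.09 against -0.02 over all genes. Foxo1, a transcription factor that AKT restrains, stood at 61.4, 21.9 and 31.1 CPM in cardiomyocytes and 18.4, 12.8 and 19.2 CPM in nonmyocytes. It was higher without overlap, by 1.16 ± 0.33 (edgeR, adjusted p = 0.0084), although 56.1% of its exon sequence is shared with other genes.

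The growth factor pathway split. Igf1, the ligand, fell by 3.27 on the log2 scale (SE 0.29), from 25.8 ± 1.72 CPM in nonmyocytes to 2.80 ± 0.766 CPM in cardiomyocytes. Igf1r, its receptor, fell by 1.97 (SE 0.17), and Smad2, which carries TGF-beta signals, by 1.24 (SE 0.28). Their edgeR adjusted p-values were 5.2e-07, 3.9e-07 and 0.0016. Pik3r1, the regulatory subunit of PI3K, rose by 1.74 ± 0.18, from 82.6 ± 9.22 CPM in nonmyocytes to 277 ± 45.6 CPM in cardiomyocytes. The kinase Pim1 at 1.13 ± 0.23, the small GTPase regulator Arhgap5 at 1.22 ± 0.31 and the deacetylase Sirt1 at 1.09 ± 0.43 were also higher. Sirt1 (edgeR, adjusted p = 0.042) lost its call under most alternatives, among them leaving out any 1 library except cardiomyocyte library 1. Cd40, Pax7 and Dock3 were below the filter. With library totals 1 target, Pik3r1 at 1.09, was called higher, and that scaling moved the median of all genes by -0.68.

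**Figure D4:**
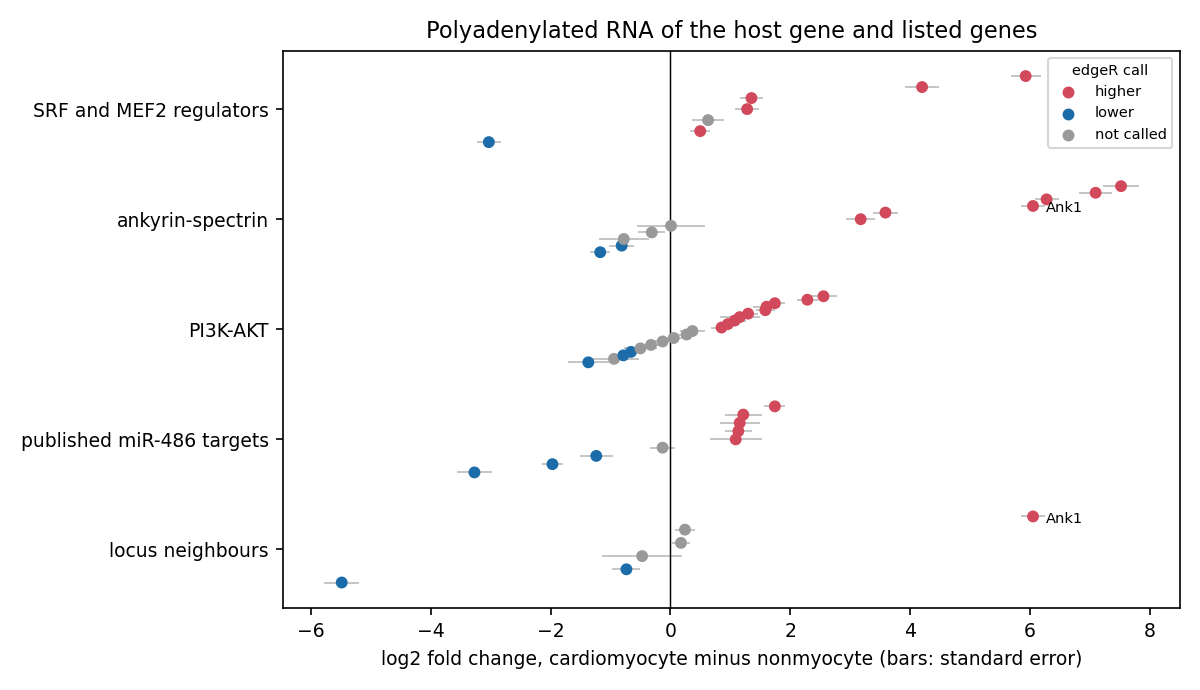
Log2 fold change, cardiomyocyte minus nonmyocyte, of polyadenylated RNA for the host gene, its neighbours, published miR-486 targets and the listed pathways; each point is a gene, bars are standard errors and colours give the edgeR call (red higher, blue lower, grey not called). Ank1 is at 6.05 while the published targets lie on both sides of 0.

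Among 20 genes of PI3K-AKT signalling tested with edgeR, 10 were higher, 3 lower and 7 not called, with a median log2 fold change of 0.61. Of all genes 31.6% were higher and 32.1% lower, 63.7% in all, so the number called was near the background. Phlpp1, a phosphatase that acts on AKT, was higher by 2.56 ± 0.23, and Tsc2, a brake on mTOR, by 1.30 ± 0.16. Akt1, an AKT kinase, was lower (-0.66 ± 0.16), while the lipid phosphatase gene Inppl1 was at 0.27 ± 0.15 and did not pass. The members that were higher included the regulatory subunit Pik3r1 and the kinases Akt2 (1.61 ± 0.22) and Mtor (1.07 ± 0.19), as well as negative regulators. With library totals 9 genes were lower.

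Ankyrins act with spectrins and, in muscle, with giant proteins of the sarcomere. Of 11 ankyrin, spectrin and giant sarcomere genes tested, 6 were higher, 2 lower and 3 not called by edgeR, with a median log2 fold change of 3.18 (31.6% of all genes were higher and 32.1% lower, with a median of -0.02). Ttn, which encodes titin, the giant spring protein of the sarcomere, was higher by 7.10 ± 0.28. Spna2, a spectrin of nonerythroid cells, was lower (-1.17 ± 0.16), and Spnb2, its beta partner, was not called at -0.31 ± 0.23.

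Of 7 tested regulators of the SRF and MEF2 programmes, 5 were higher, 1 lower and 1 not called by edgeR, with a median log2 fold change of 1.28 (31.6% of all genes were higher and 32.1% lower). Myocd, which encodes myocardin, the cardiac and smooth muscle partner of SRF, was higher by 5.93 ± 0.25. Srf itself was higher by 1.28 ± 0.20 and Mef2d by 1.35 ± 0.19. Mkl1, which encodes myocardin-related transcription factor A, went the other way, at 19.6 ± 2.25 CPM in cardiomyocytes against 162 ± 32.3 CPM in nonmyocytes, a log2 fold change of -3.03 ± 0.20. Mkl2, which encodes myocardin-related transcription factor B, was higher by 0.50 ± 0.16 (edgeR, adjusted p = 0.018), at 82.6 ± 7.90 against 58.6 ± 4.91 CPM.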

How the data were processed

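Small RNA and polyadenylated RNA were measured in cardiomyocyte and nonmyocyte fractions, 3 libraries each. The authors deposited whole-number counts per microRNA arm and strand and per gene. The submitters' processing notes name Bowtie, TopHat 1.3.0, HTSeq, DESeq, edgeR and the builds mm9 and NCBIM37, without their roles. The sources used here give no counting rules. The locus and the lists were chosen with earlier results of these data known.

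Counts were filtered (filterByExpr, minimum count 10), scaled by TMM and compared with edgeR 4.0.16 in R 4.3.3 (robust quasi-likelihood test, two-sided, Benjamini-Hochberg over all features, called under 0.05). The script was checked on simulated data. The standard error is the size of the log2 fold change divided by the square root of the F statistic. The biological coefficient of variation was 0.639 in small RNA and 0.251 in polyadenylated RNA. Shares have exact 95% Clopper-Pearson intervals (scipy 1.17.1), and 3 counts set the limit for a row at 0. Of 736 sense rows of a 5p or 3p arm, 476 lay outside chromosome 18 and matched a RefSeq mature sequence. Only these entered the comparison of copies.

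The rule for names took all rows of the locus, the 5 rows most like sense 5p (Pearson's r of log2 CPM, prior count 2), the most abundant other opposite-strand rows, and all tested published targets. From each other list it took the 3 most abundant members and the largest called change each way. A few genes that these rules name are not reported here. Red cell genes were picked for naming with their values in view. The alternatives tried were other scalings, no filter, DESeq2 1.42.0, limma 3.58.1 (voom), the replicate number as a block, abundant rows removed and each library left out. Leaving out cardiomyocyte library 1 with nonmyocyte library 3, and leaving out the miR-486 rows, were added after seeing the data.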

Additional observations from a re-analysis of the deposited data

How the results depend on the processing

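All 4 miR-486 rows kept their direction under every alternative that gave a value. With library totals in place of TMM, the log2 fold change was 5.67 for sense 5p and 5.59 for opposite-strand 3p. Leaving out 1 library at a time gave 6.77 to 9.60 for sense 5p, 6.66 to 9.82 for opposite-strand 3p and 6.22 to 9.10 for sense 3p, the top of each being the fit without nonmyocyte library 3. Without that library and cardiomyocyte library 1, opposite-strand 3p was at 8.95. The opposite-strand 5p row, at 0 in nonmyocytes, was at 8.21 with DESeq2 and 6.07 with limma voom. Without the 3 most abundant rows in the totals the nonmyocyte level of sense 5p was 3681 CPM, and the fold of sense 5p and opposite-strand 3p was not run there, since both are among those rows. Opposite-strand 5p gave no value without cardiomyocyte library 2.

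The cause of these differences was not tested.

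Small RNA rows called ranged from 114 (without cardiomyocyte library 2) to 223, and those higher in cardiomyocytes from 29 (without nonmyocyte library 2) to 95. Library totals gave 28 higher and 186 lower, against 65 and 116 with TMM. In polyadenylated RNA they gave 3178 higher and 7101 lower, against 4657 and 4732. They also turned Agpat6 to -0.50, Inppl1 to -0.40 and Myst3 to -0.42. Leaving out 1 library at a time gave -0.80 to 0.034 for Gins4, which turned only without cardiomyocyte library 1. Depth limits the sense 3p and opposite-strand 5p rows most. Pairing by replicate number was not settled. Same-numbered libraries had r, of deviations from the mean of their fraction, of 0.04, -0.10 and 0.25 in small RNA. In polyadenylated RNA these were 0.16, 0.05 and 0.10. In neither assay did every library correlate best with its own number. With the replicate number as a block, sense 5p was at 8.15 and opposite-strand 3p at 8.33. The block took the standard error of Hbb-b2 from 2.05 to 0.47 and that of Hba-a1 from 1.89 to 0.85. For sense 5p the standard error went from 1.35 to 1.61. The block gave 158 small RNA calls and 9499 in polyadenylated RNA, against 181 and 9389.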
